A study of Sus scrofa with 12 samples.

Results

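The cytosolic ribosome is built from ribosomal RNA and a set of ribosomal proteins, and the genes for these proteins were followed here in the Longissimus dorsi (loin) muscle of Iberian pigs. Members were all protein-coding genes of the Sscrofa11.1 annotation whose symbol is RPL or RPS followed by a number, with an optional letter suffix or L, together with RPLP0, RPLP1, RPLP2 and RPSA. The RPS6K kinases, unnamed loci and pseudogenes were left out. This gave 81 of 28224 annotated genes, 49 of the large subunit and 32 of the small subunit. The expression unit is FPKM, fragments counted per transcript length and per mapped fragments of the library. The value of a gene was the length-weighted sum of its assembled transcripts divided by its annotated exon length.

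RNA was sequenced from 12 castrated male pigs of a single closed Iberian line, 6 in a Tough group and 6 in a Tender group, with 1 library per animal. All animals were fattened outdoors on acorns and grass, and none shared a parent. The Tough animals had high breeding values for shear force, the force needed to cut cooked meat, from 1.76 to 2.40, and shear forces of 7.32 to 10.63 kg/cm2. The Tender animals had breeding values from -1.09 to -0.98 and shear forces of 2.18 to 3.43 kg/cm2. The animals are extremes of 1 population, and muscle samples of this kind contain every cell type of the tissue.

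Ribosomal proteins of the large subunit surround the site where peptide bonds are formed, and those of the small subunit surround the site where messenger RNA is decoded. The messenger RNAs of most of them start with a cytosine followed by a run of pyrimidines, known as the terminal oligopyrimidine (TOP) motif, through which nutrient and growth signals control their translation. Striated muscle is unusual in replacing RPL3, a core protein near the peptide-forming site, in part of its ribosomes with the paralog RPL3L.

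The sequence around the annotated start shows which members carry a TOP-like run. Each line below has the 20 bases before the start and the first 20 bases of the transcript, read 5′ to 3′ on the coding strand of Sscrofa11.1. Capitals mark the longest run of a C followed by C or T that is at least 7 bases long. These members are shown because they hold long runs (RPL34, RPL10, RPS20, RPLP0, RPLP2), because they had the smallest p-values of the comparison described later (RPL36, RPS12, RPS15A), or because they are muscle or duplicate forms whose windows hold none (RPL3L with its partner RPL3, RPS27L, RPL36AL).
RPL34 at chr8:113471980-113472019 (minus strand): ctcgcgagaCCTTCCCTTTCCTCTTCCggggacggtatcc
RPL10 at chrX:124927229-124927268 (plus strand): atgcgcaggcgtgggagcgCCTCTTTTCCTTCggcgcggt
RPS20 at chr4:75762189-75762228 (plus strand): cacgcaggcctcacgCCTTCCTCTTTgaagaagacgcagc
RPLP0 at chr14:40223924-40223963 (minus strand): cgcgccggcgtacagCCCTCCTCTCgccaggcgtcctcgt
RPLP2 at chr2:507871-507910 (plus strand): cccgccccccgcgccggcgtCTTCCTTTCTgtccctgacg
RPL36 at chr2:73288493-73288532 (minus strand): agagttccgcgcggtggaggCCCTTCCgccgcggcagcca
RPS12 at chr1:30923373-30923412 (minus strand): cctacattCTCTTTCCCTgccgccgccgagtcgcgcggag
RPS15A at chr3:26776803-26776842 (plus strand): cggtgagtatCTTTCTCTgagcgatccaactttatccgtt
RPL3 at chr5:8922677-8922716 (plus strand): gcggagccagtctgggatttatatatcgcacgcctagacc
RPL3L at chr3:40005028-40005067 (plus strand): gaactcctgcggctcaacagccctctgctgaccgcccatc
RPS27L at chr1:108881310-108881349 (plus strand): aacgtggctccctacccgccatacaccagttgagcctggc
RPL36AL at chr1:179477801-179477840 (minus strand): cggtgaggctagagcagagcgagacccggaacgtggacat

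Such a run was present in 41 of 81 member windows (50.62%), against 3602 of 19559 windows of all protein-coding genes (18.42%). The position of the run differed between members. In RPLP2 and RPL36 it began at the first transcribed base, in RPL10 at the base before it, and in RPLP0 and RPS20 5 bases before it. In the longer window from 250 bases before to 50 bases after the start, searched on both strands, CCGGAAG, a core of ETS factor sites, occurred in 39.51% of members and 11.19% of protein-coding genes. TATAAA occurred in 13.58% of members and 10.63% of genes, and AAGATGGC in 6.17% and 2.75%. These are matches of letters only. Annotated starts are partly predictions, so a run outside a window may still lie at the true start.

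Ribosomal protein messengers were among the most abundant of the loin muscle. Of the 100 genes with the highest mean FPKM 23 were members, of the first 200 55 were, and of the first 500 68 were. A value above 0 in all 12 libraries was obtained for 56 members, 31 of the large and 25 of the small subunit, and their mean levels had a median of 271 FPKM. The median was 239 FPKM for the large and 275 FPKM for the small subunit. Between libraries the coefficient of variation of these genes ran from 10.1% to 44.5%, with a median of 16.8%. Read depth was not used here, and the ratio of read coverage to FPKM, which scales with depth, ran from 6.55 to 10.2 between libraries.

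**Figure D1:**
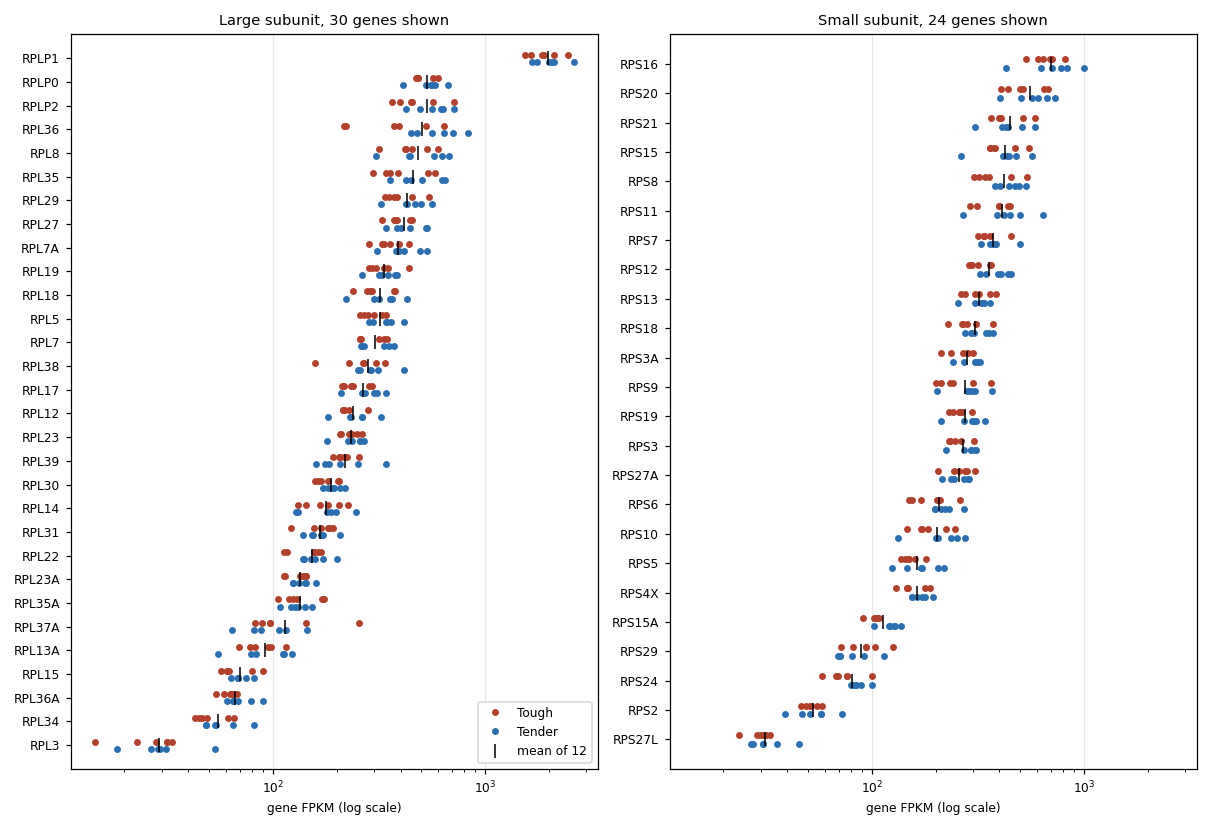
Gene FPKM (log axis) of 30 large subunit and 24 small subunit genes with a value in every library, with 1 point per library, Tough in red and Tender in blue, and a bar at the mean of 12 libraries. RPLP1 stands highest at 1550.4 to 2625 FPKM, RPL3 is lowest at 14.5 to 53.3 FPKM, and the points of both groups overlap in every row.

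The stalk of the large subunit, which recruits elongation factors, is formed by RPLP0 and dimers of the acidic proteins RPLP1 and RPLP2. RPLP1 was the most abundant member, with 2459, 1646, 1550.4, 1867, 1907 and 2126 FPKM in Tough animals 1 to 6 and 2118, 2625, 1998, 1659, 2072 and 1758 FPKM in Tender animals 1 to 6. The groups overlapped over most of their range, and the log2 fold change of Tough minus Tender was -0.08 (SE 0.15, exact permutation p = 0.548). RPLP2 ran from 366 to 716 FPKM in Tough (median 449.8) and from 425 to 718 FPKM in Tender (median 592), and its log2 fold change was -0.25 (SE 0.19, exact permutation p = 0.190). RPLP0, the stalk base, ran from 473 to 601 FPKM in Tough (median 485) and from 413 to 672 FPKM in Tender (median 561). RPLP1 was the highest of the 3 stalk genes in every library. RPLP1 has 10 near-identical copies elsewhere in the genome, so part of its reads may not be placed uniquely.

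RPS16 and RPS20, proteins of the small subunit head, completed the 5 highest of the 56 genes. RPS16 ran from 533 to 815 FPKM in Tough (median 668) and from 430.1 to 1003 FPKM in Tender (median 743). RPS20 ran from 406 to 676 FPKM in Tough (median 508) and from 401 to 727 FPKM in Tender (median 587). For both genes the Tender animals had the lowest and the highest value, and the Tough range lay inside the Tender range.

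Among the 5 lowest of the 56 genes were RPL3, RPS27L, RPS2 and RPL34, and for some of them the gene value and the transcript value differed widely. RPS2, a protein at the messenger entry side of the small subunit, ran from 46.5 to 58.4 FPKM in Tough and from 39.03 to 72.3 FPKM in Tender as a gene value. Its annotated exons span 5903 bases, and the most abundant single transcript assembled there averaged 406 FPKM. RPS29, RPS24 and RPL13A showed the same gap, with 89.1, 80.8 and 92.1 FPKM per gene against 509.8, 429 and 389.5 FPKM for the highest transcript. Over the 56 genes, Spearman's rho between exon length and gene FPKM was -0.55, and between exon length and highest-transcript FPKM -0.03, both being descriptions across genes. The low place of RPL3 and RPS27L did not depend on this, since their highest transcripts averaged 30.1 and 43.9 FPKM.

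RPL3 and its muscle paralog RPL3L share 73.12% of aligned coding bases. RPL3, at chr5:8922697-8929768, had 31.8, 31.7, 28.3, 33.4, 22.8 and 14.5 FPKM in Tough animals 1 to 6 and 18.4, 29.3, 53.3, 26.8, 31.5 and 28.8 FPKM in Tender animals 1 to 6. RPL3L, at chr3:40004907-40016702 next to RPS2, had 0, 138.7, 0, 139, 143 and 126 FPKM in Tough and 165, 163, 139.6, 101, 139.3 and 129 FPKM in Tender. Where both had a value, in 10 libraries, RPL3L stood above RPL3 by 2.62-fold to 8.98-fold, with a median of 4.45-fold.

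The exons of RPL3L were covered by assembled transcripts in both libraries where it was listed at 0. In Tough 1 and Tough 3 its exons were part of transcripts of 4634 and 2969 bases that ran on into the neighbour MSRB1, with 30.9% and 48.7% of their bases in RPL3L, below the 50% needed to be counted for it. Transcripts of 2730 bases in Tough 5 and 2802 bases in Tender 1 were also joined, with 52.9% and 51.5% inside, and were counted whole. When every same-strand transcript was instead counted per base inside the RPL3L exons, RPL3L had 65.0, 138, 75.3, 139, 75.6 and 126 FPKM in Tough and 84.9, 162, 139.3, 100.5, 139 and 129 FPKM in Tender. The 4 lowest values were then those of the 4 libraries with joined transcripts. On this measure the ratio of RPL3L to RPL3 was 4.25 ± 2.34 (SD, n = 6) in Tough and 4.23 ± 0.98 (SD, n = 6) in Tender, and above 2.04 in every animal but Tough 1, which held that value.

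**Figure D2:**
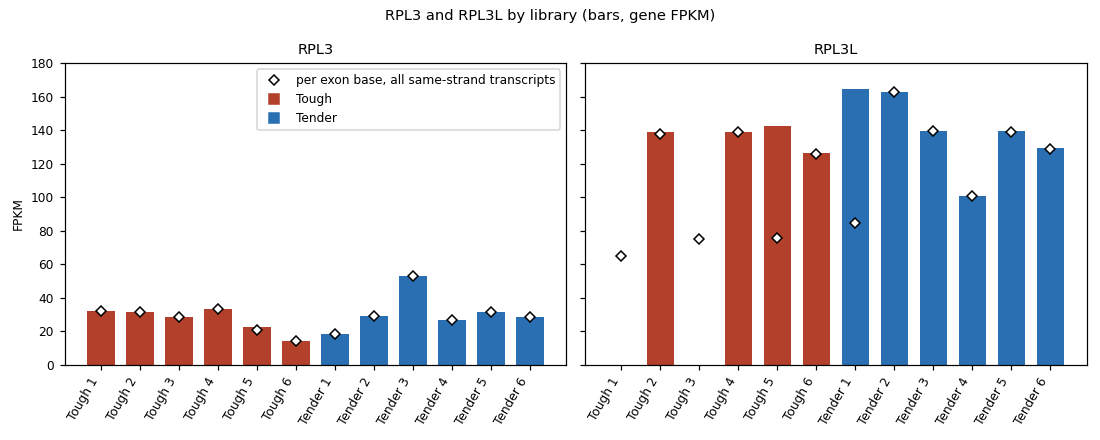
FPKM of RPL3 (left) and RPL3L (right) in each library, with bars for the gene value, Tough in red and Tender in blue, and diamonds for the value per exon base over all same-strand transcripts. RPL3L has no bar in Tough 1 and Tough 3 but diamonds at 65.0 and 75.3 FPKM there, and diamonds well below the bars in Tough 5 and Tender 1.

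The log2 ratio of RPL3L to RPL3 was different by -2.52 between Tough and Tender with the gene values, and this difference was within the spread (exact two-sided permutation test, p = 0.357). It was carried by the 2 zeros, since it was -0.12 with the per-base values (exact permutation p = 0.725) and 0.28, in the other direction, over the 10 libraries with both genes above 0 (exact permutation p = 0.433). RPL3L itself had a log2 fold change of -2.71 (SE 1.54, exact permutation p = 0.203) with the zeros and of -0.01 without them. RPL3 had a log2 fold change of -0.19 (SE 0.26, exact permutation p = 0.494). The 5 genes whose pattern was most like RPL3L over the 12 libraries were RPL28, C1H6orf120, TTC19, AAK1 and NR1H3, with Pearson's r from 0.792 to 0.997, and all of them were listed at 0 in Tough 1 and Tough 3 as well.

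The other paralog pairs differed in the level of the second copy beside the first. RPS27L, a p53-responsive relative of RPS27, ran from 23.7 to 33.0 FPKM in Tough and from 26.9 to 45.5 FPKM in Tender. Per exon base it stood at 0.298 to 1.06 times RPS27, with a median of 0.621. RPL36AL, a relative of the X-linked RPL36A, was at 0.440 to 0.697 times RPL36A in the 10 libraries with a gene value for both, and at 0.172 to 0.599 times per exon base over all 12. RPL10L, a testis-enriched retrocopy of RPL10, had no transcript over its exon in any of the 12 libraries. A second gene annotated as RPL18, at chr1:84378453-84379052, had none either, whereas RPL18 on chromosome 6 averaged 319 FPKM. The annotation has RPS4X but no other member of a pair on the X and Y chromosomes.

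Zeros were common among the members, and all but those of RPL10L and the second RPL18 stood over assembled transcripts. Besides those 2 genes and RPL32, which was at 0 in all libraries, 22 members were at 0 in some libraries. This made 81 zeros with a transcript over the exons, 47 in Tough and 34 in Tender animals, or 5 to 11 per Tough library and 5 to 7 per Tender library. The transcripts there were up to 10061 bases long (median 1887), and a median of 38.7% of their bases lay in the gene. In 43 of the 81 the transcript ran more than 500 bases past the 3′ end of the gene, in 28 it began more than 500 bases before the 5′ end, and in 7 it reached another gene of the same strand. Counted per exon base, the values in these 81 places ran from 11.6 to 528 FPKM. In the 69 with such a library to set beside them, the value was below the median per-base value of the libraries in which the member did have a gene value in all 69, at 8.81% to 80.2% of it (for RPS27 that is Tender 2 alone, and for RPL24 Tender 2 and Tender 4).

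**Figure D3:**
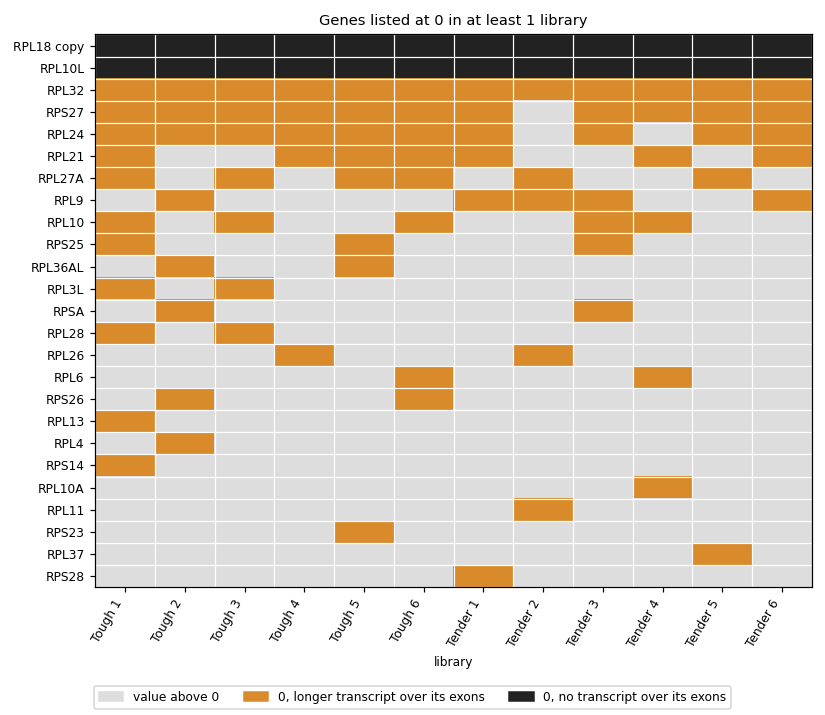
Members (rows) listed at 0 in at least 1 of the 12 libraries (columns), with orange where a longer same-strand transcript covers the exons and black where none does. RPL32 is orange in all 12 libraries, RPS27 in 11 and RPL24 in 10, and only RPL18 copy (the second RPL18) and RPL10L are black.

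RPL32, a large subunit protein, shows the pattern in full. Its transcript had 1783 to 1984 bases in every library, 1249 to 1253 of them past the annotated 3′ end, and its per-base value was 147, 111, 106, 138, 102 and 119 FPKM in Tough and 128, 167, 149, 100.2, 143 and 131 FPKM in Tender. RPS27 had a gene value in Tender 2 only (79.3 FPKM), and RPL24 in Tender 2 and Tender 4 only (269 and 84.3 FPKM). RPL10, a protein needed for subunit joining, had 942, 1080 and 1187 FPKM in Tough 2, 4 and 5 and 1097, 1365, 1276 and 1153 FPKM in Tender 1, 2, 5 and 6. In the other 5 libraries it was at 0, under transcripts that began 869 to 3276 bases upstream.

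Whether the members differed between Tough and Tender muscle was tested with limma on log2(FPKM + 0.5) over the 9022 genes with a mean above 0.5 FPKM, 78 of them members. A call needed an unadjusted p up to 0.05, a Benjamini-Hochberg adjusted p up to 0.10 and a 1.5-fold difference. None of the 78 members was called, nor was any of the 9022 genes (0.0%), and every adjusted p of a member was 1.0. At an unadjusted limma p of at most 0.05, 3 members were higher in Tender and 0 in Tough. That is 3.85% of the members, where 1.78% of all genes tested were higher in Tender and 0.72% were higher in Tough at that p. An exact Wilcoxon rank-sum test in place of limma gave 7 of 78 members at p of at most 0.05, all higher in Tender. Among these 7 were RPL28 and RPL36AL (exact Wilcoxon p = 0.039 each). Both were at 0 in 2 Tough libraries and in no Tender library, and ranks place such zeros lowest. Over all 9022 genes, 139 were higher in Tender and 53 higher in Tough at that p of the Wilcoxon test. No adjusted p of any gene was below 1.0 with it. In no member were the 2 groups free of overlap, which 0.0998% of all genes were.

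The signs leaned to one side. Of the 78 members 66 had a higher mean in Tender and 12 in Tough (84.6% in Tender), while 60.3% of all genes tested had a higher mean in Tender. The median log2 fold change was -0.15 over the members and -0.04 over all genes, with -0.13 for 46 large subunit and -0.16 for 32 small subunit genes. The share of members higher in Tender moved with the scaling between libraries. With median-of-ratios scaling 58 of 78 members (74.4%) and 49.1% of all genes were higher in Tender, with upper-quartile scaling 71.8% and 46.6%, and with quantile normalization 52.6% and 49.6%, where the member median was -0.01. The member median minus the median of all genes was -0.106 without scaling, -0.101 with median-of-ratios scaling and -0.095 with upper-quartile scaling. It was -0.016 with quantile normalization. In muscle as a whole, RNA of these genes per cell, the part of cells that express them strongly and the scaling cannot be told apart.

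**Figure D4:**
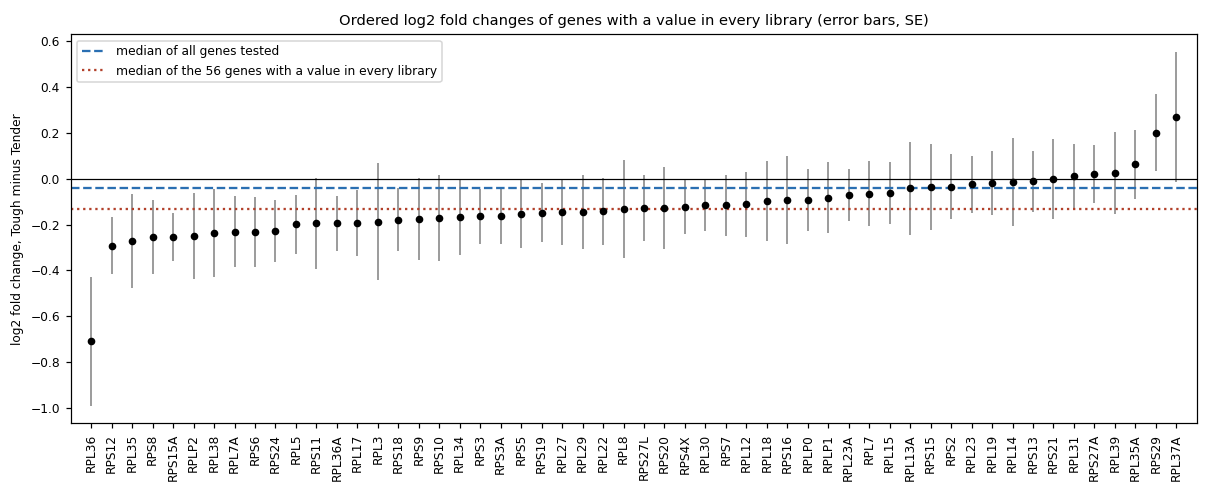
Log2 fold change of Tough minus Tender (points) with its SE (bars) for 54 of the 56 members with a value in every library, in order, with dashed and dotted lines at the medians of all genes tested (-0.04) and of the 56 members (-0.13). RPL36 stands apart at -0.71, 47 of the 54 points lie below 0, and most bars reach the line of all genes.

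RPL36, a large subunit protein near the tunnel exit (chr2:73286906-73288512), had the smallest p of all members. It had 394, 526, 374, 640, 216 and 221 FPKM in Tough animals 1 to 6 and 480.5, 831, 708, 446, 563 and 643 FPKM in Tender animals 1 to 6. Tough 5 and Tough 6 were the lowest of the 12, while Tough 2 and Tough 4 lay within the Tender range. The log2 fold change was -0.71 (SE 0.28, limma p = 0.0257, adjusted p = 1.0, exact permutation p = 0.0368). Its coding sequence had no near-identical copy in the genome.

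RPS15A, a small subunit protein (chr3:26776661-26783491), had 106, 103, 103, 106, 108 and 91.4 FPKM in Tough and 102, 128, 122, 138, 121 and 128 FPKM in Tender. Tender 1 fell among the Tough animals, and the other 5 Tender animals were above all 6 Tough animals. The log2 fold change was -0.26 (SE 0.10, limma p = 0.0299, adjusted p = 1.0, exact permutation p = 0.0130). With median-of-ratios, quantile and upper-quartile scaling the limma p was 0.0769, 0.176 and 0.0696. RPS15A has 5 near-identical copies in the genome, so its reads are not all its own with certainty.

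RPS12, a protein of the small subunit beak (chr1:30920804-30923392), had 362, 316, 297, 366, 288 and 295 FPKM in Tough and 347, 438, 452, 325, 394 and 408 FPKM in Tender. The 4 highest values were Tender and the 4 lowest Tough. Its log2 fold change was -0.29 (SE 0.12, limma p = 0.0353, adjusted p = 1.0, exact permutation p = 0.0216). With median-of-ratios, quantile and upper-quartile scaling it was -0.24 (SE 0.164), -0.15 (SE 0.095) and -0.23 (SE 0.142). With the highest transcript in place of the gene value it was -0.20 (SE 0.134). In none of these runs was RPS12 among the members at an unadjusted limma p of at most 0.05.

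RPL28 and RPL36AL, also among the members of smallest p with a higher mean in Tender, had zeros in Tough only. RPL28 was at 0 in Tough 1 and Tough 3 and at 170.5 FPKM or more in the other 4 Tough animals (median of all 6 at 177), and had 286, 342, 255, 130.5, 221 and 272 FPKM in Tender. Its log2 fold change was -3.16 with the zeros (SE 1.65, exact permutation p = 0.0714) and -0.84 per exon base (SE 0.40, exact permutation p = 0.0519), but -0.28 with the zeros set to missing (SE 0.24) and -0.16 with median-of-ratios scaling as well. RPL36AL was at 0 in Tough 2 and Tough 5 and between 30.4 and 43.3 FPKM elsewhere, and its log2 fold change was -2.18 (SE 1.16, exact permutation p = 0.0281) and -0.59 per exon base (SE 0.26, exact permutation p = 0.0325), but -0.16 with the zeros set to missing (SE 0.15) and -0.07 with median-of-ratios scaling as well. The per-base values are themselves low where the zeros stood.

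Among members with a higher mean in Tough, RPS29 was the one of smallest p that had a value in every library. This small zinc-binding protein had 127, 81.3, 94.3, 104, 71.7 and 94.1 FPKM in Tough and 69.1, 115, 80.8, 70.5, 91.7 and 70.9 FPKM in Tender, with a log2 fold change of 0.20 (SE 0.17, exact permutation p = 0.249). The other 5 of the 6 smallest p-values in this direction held zeros in Tender. RPL9 was at 0 in 4 Tender animals and 1 Tough animal, with 71.0 to 114 FPKM in the other 7, and its log2 fold change of 3.76 (SE 1.84, exact permutation p = 0.123) was 0.82 per exon base (SE 0.37, exact permutation p = 0.0801). RPS28, RPL37, RPL11 and RPL10A were at 0 in 1 Tender animal each, and their log2 fold changes of 1.77, 1.51, 1.44 and 1.36 were -0.01, -0.14, -0.16 and -0.20 with the zeros set to missing.

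RPSA, the laminin receptor-related protein of the small subunit, was at 0 in Tough 2 and Tender 3 and ran from 186 to 276 FPKM in the other 10 animals. RPS6, the target of S6 kinases, ran from 150.3 to 259.7 FPKM in Tough (median 186.8) and from 198 to 271 FPKM in Tender (median 217), with a log2 fold change of -0.23 (SE 0.15, exact permutation p = 0.132). RPS27A, made as a fusion with ubiquitin, ran from 205 to 306 FPKM in Tough and from 215 to 287 FPKM in Tender, with a log2 fold change of 0.02 (SE 0.13, exact permutation p = 0.844).

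Single libraries stood far apart in the members. The summed FPKM of the 56 genes was 19204, 15102, 14263, 17306, 14924 and 15070 in Tough animals 1 to 6 and 16596, 21115, 19039, 14047, 17844 and 17325 in Tender animals 1 to 6. This was 6.11% to 7.27% of all gene FPKM in Tough and 5.26% to 8.81% in Tender, with both the lowest and the highest share in Tender. The sum was 15978 ± 1887 FPKM (SD, n = 6) in Tough and 17661 ± 2374 FPKM (SD, n = 6) in Tender, a difference smaller than either SD. Tender 2 held the highest value of 12 libraries for 24 of the 56 genes, and Tender 4 the lowest for 23 and the highest for 6.

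The count of members at p of at most 0.05 followed single libraries. It was 0 without Tender 2 or without Tough 6, 1 without Tough 5, Tender 3 or Tender 6, 5 without Tough 3 and 7 without Tough 1, against 3 with all. In these runs the members were all higher in Tender. Without Tough 2, Tender 4 or Tender 5, 1 member was higher in Tough, beside 2, 3 and 2 higher in Tender. Over all genes, 86, 239 and 62 were then higher in Tough at that p and 158, 162 and 89 higher in Tender. For the runs listed first, the count of all genes higher in Tender moved too, from 161 with all libraries. It was 146 without Tender 2, 96 without Tough 6, 133 without Tough 5 and 123 without Tender 3. It was 133 without Tender 6, 165 without Tough 3 and 320 without Tough 1. The median log2 fold change of the members ran from -0.21 without Tender 4 to -0.10 without Tender 2, and stayed below 0 in each of the 12. The median of all genes moved too. The member median minus that of all genes was -0.055 without Tender 2, -0.059 without Tender 3 and -0.218 without Tender 4, against -0.106 with all libraries.

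Most members moved together from library to library. The median Pearson's r over the 1540 pairs of the 56 genes was 0.385 on log2(FPKM + 0.5) over 12 libraries, with 73.3% of pairs above 0, as a description of genes that share library and scaling. RPS10, RPL29 and RPS3 followed the median of the other members most closely, with r of 0.971, 0.961 and 0.943. At the other end were RPL7 (r = -0.660), RPL31 (-0.630), RPS27L (-0.377) and RPS6 (-0.319). RPL7 had its highest values in Tender 4, Tender 6 and Tough 2 (375, 354 and 347 FPKM), 2 of which were among the lower libraries for the members as a whole.

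**Figure D5:**
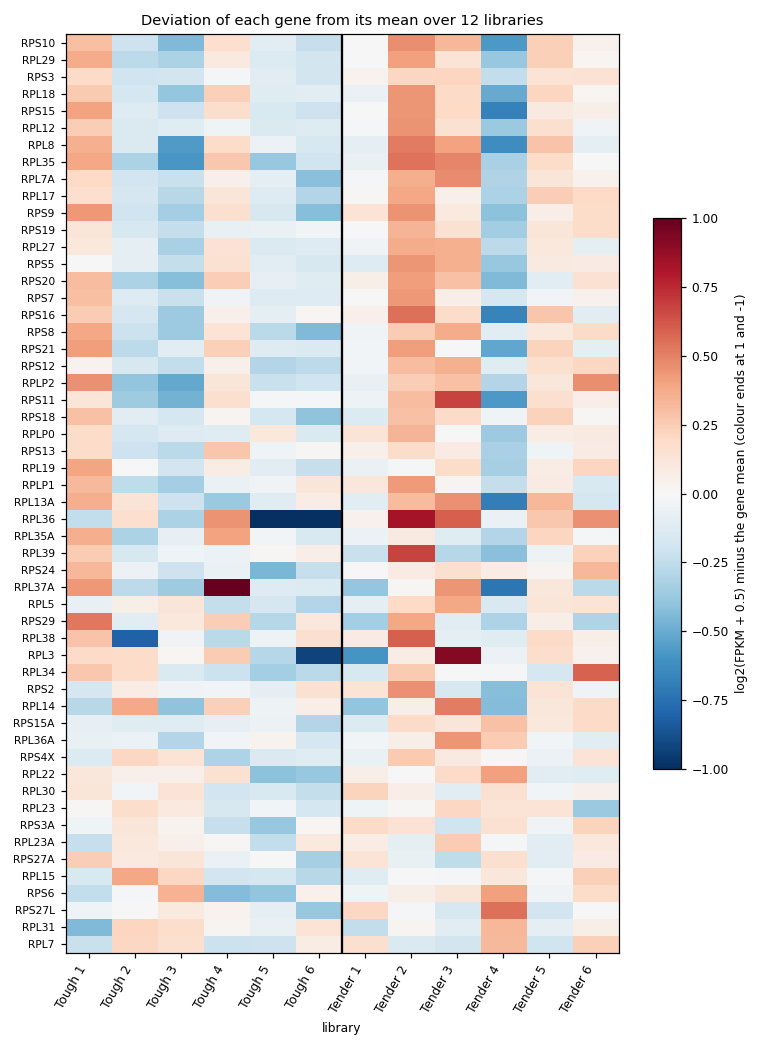
Deviation of log2(FPKM + 0.5) from the gene mean (red above, blue below) for 54 of the 56 members with a value in every library (rows) in the 12 libraries (columns, Tough left of the line), ordered by how closely a gene follows the others. The column of Tender 2 is mostly red and that of Tender 4 mostly blue, except for the bottom rows such as RPL7 and RPL31, where Tender 4 is red.

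The GC content of the coding sequence, from 42.4% to 62.5% over the 56 genes, moved with this split. Spearman's rho between GC content and the deviation of a library was -0.65 in Tender 4 and 0.51 in Tender 2, and between -0.49 and 0.49 in the other 10 libraries. In Tender 4 the median deviation was -0.36 for the 28 GC-rich members and -0.02 for the 28 GC-poor members, and in Tender 2 it was 0.41 and 0.12. The fold changes between the groups did not follow it, with rho of -0.005 and medians of -0.14 for GC-rich and -0.13 for GC-poor members. What part base composition has in the library differences was not tested.

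RPS24 was examined for its exons after its values were seen, because the gene is known for alternative use of very short exons near its 3′ end. The annotation has an exon of 3 bases (aag) at chr14:80477861-80477863 and, downstream of it, an exon of 18 bases. No assembled form held the 3-base exon at its annotated place. All 12 libraries assembled a form with the exon below, at chr14:80478363-80478383 on the plus strand. It is 3 bases (capitals) longer at its 5′ end than the annotated 18-base exon. Whether these 3 bases stand in for the annotated 3-base exon was not tested.
RPS24 short exon as assembled: CAGaaatgaagtgtctagcag
A second form without this exon was assembled in 6 libraries. The form with the exon held 81.6%, 78.4% and 81.9% of the FPKM of both forms in Tough 1, 4 and 5 and 87.9%, 86.2% and 83.0% in Tender 2, 3 and 6. With 3 libraries on each side, chosen by whether both forms were assembled, these shares were not tested.

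Markers matched the labelled tissue, with all 13 annotated skeletal muscle genes of the list detected at a summed level of 29632 to 41936 FPKM in Tough and 17875 to 39469 FPKM in Tender. Red blood cell markers differed between the groups. The summed FPKM of HBB, ALAS2 and AHSP, 3 of the 4 annotated of this list with SLC4A1 at 0, was 124 to 207 in Tough and 239 to 353 in Tender, without overlap. Adipocyte markers (5 of 6 detected, ADIPOQ at 0) summed to 29.998 to 53.7 FPKM in Tough and 22.2 to 81.5 FPKM in Tender, and fibroblast markers (6 of 6) to 69.4 to 210.3 and 67.4 to 156 FPKM. Macrophage markers (8 of 8) summed to 9.62 to 33.5 and 11.99 to 69.8 FPKM with the highest sum in Tender 2, endothelial markers (5 of 6, CLDN5 at 0) to 15.7 to 32.7 and 25.4 to 41.7 FPKM, smooth muscle markers (4 of 5, RGS5 at 0) to 25.9 to 68.1 and 27.0 to 38.9 FPKM, and lymphocyte markers (4 of 8 detected, with CD79A, IL7R and MS4A1 among those at 0) to 0.0564 to 2.54 and 0.0533 to 2.26 FPKM. The part of these cells in the values of the members was not tested.

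Other genes of protein synthesis mostly had a higher mean in Tender, and none were called. These counts stand beside 60.3% of all genes with a higher mean in Tender, a share that was 46.6% to 49.6% with the other scalings, under which the lists were not counted. Of the 3 ribosomal protein genes with other symbols 2 were higher in Tough (median log2 fold change 0.15). RACK1 had a log2 fold change of -0.23 (SE 0.16, exact permutation p = 0.136) and FAU one of 0.15 (SE 0.19, exact permutation p = 0.474). The 3 L1 paralogs, RPL22L1, RPL26L1 and RPL7L1, stood low, at means of 15.4, 8.32 and 4.16 FPKM in Tough and 14.9, 8.53 and 4.69 FPKM in Tender, RPL7L1 with zeros in 7 libraries. On the log2 scale 2 of these 3 were higher in Tough (median log2 fold change 0.018). Of 8 elongation factor genes 7 were higher in Tender. EEF1A2, the muscle form of the factor that brings tRNA to the ribosome, stood at 1123 ± 1084 FPKM (SD, n = 6) in Tough and 2292 ± 776 FPKM (SD, n = 6) in Tender. Its 2 zeros were both in Tough, in Tough 2 and Tough 4 (exact permutation p = 0.0563 with them). The other Tough animals had 908 to 2494 FPKM and the Tender animals 1188 to 3296 FPKM. What part these zeros have in the difference was not tested. EEF1B2 had a log2 fold change of -0.25 (SE 0.13, exact permutation p = 0.0433). Of 28 initiation factor genes 21 were higher in Tender (median -0.16), of 13 other TOP messengers 11 (median -0.11), of 40 ribosome biogenesis genes 36 (median -0.07), of 6 ribosomal protein chaperones 6 (median -0.17) and of 11 TOP regulators 9 (median -0.18), and in these lists no gene reached an unadjusted limma p of 0.05. Examples of small p were EIF3L (-0.26), EEF1G (-0.24), NOP56 (-0.39), PDCD2L (-0.18) and RPS6KB2 (-1.41, with zeros in 4 libraries), as log2 fold changes. EEF1B2 among the other TOP messengers and RPS6 among the TOP regulators had a smaller p than the gene named. The lists are not separate. EEF1A1, EEF1B2, EEF1G, EEF2, EIF3E, EIF3F, EIF3H and EIF4B are other TOP messengers and also elongation or initiation factors. RPS6 is also a member. Of 71 mitochondrial ribosomal protein genes, which serve the separate ribosome of the mitochondrion, 64 were higher in Tender (median -0.12). At an unadjusted p of at most 0.05 stood 3 of them higher in Tender, among them MRPS6 (log2 fold change -0.75, SE 0.27, exact permutation p = 0.0281), and 1 higher in Tough (1.78% and 0.72% of all genes tested stood there), MRPL9, which was at 0 in 9 libraries. Near-identical copies in the genome were found for 55 members (167 copies in all, 17 for RPL39), so reads of these genes may be shared.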

How the data were processed

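RNA-seq was made from 1 Longissimus dorsi sample of each of 12 pigs, 6 Tough and 6 Tender as the labels give them. The deposited files are 1 transcript assembly per library. Per the labels and the study's methods, the authors trimmed reads with Trim Galore after FastQC, mapped them to Sscrofa11.1 with TopHat2 2.1.0 and assembled transcripts with Cufflinks 2.2.1, which gives each transcript an FPKM. The score column of the deposited files was not used. Assembly runs per library, so a transcript that joins neighbours or runs past a gene changes that gene's value. Read counts and read depth are not used here, so no interval for counting error is given.

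Gene FPKM was the sum of FPKM times length over same-strand transcripts with at least 50% of their exonic bases in the gene, divided by its RefSeq exon length. limma 3.58.1 in R 4.3.3 (eBayes with trend) was fitted on log2(FPKM + 0.5) for genes with a mean above 0.5 FPKM, with Benjamini-Hochberg adjustment over all of them. The procedure was tested on simulated data. Fold changes on this scale understate changes of low genes. Exact permutation tests were two-sided over all splits of the animals into groups of 6, so the smallest p was 0.00216. Genome copies were found by BLAST+ 2.17.0 at 90% identity over 80% of the coding sequence. Sequences are from RefSeq Sscrofa11.1.

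The members and lists were chosen with earlier results of these data known. Text names the paralog pairs, the 5 highest and 5 lowest members with a value in every library, the 6 smallest p in each direction, members at 0, the stalk genes, RPSA, RPS6 and RPS27A, and up to 2 genes of smallest p per list, with other genes named as examples after their values were seen. A few genes these rules would name or plot are not reported here, though counts and medians include them. Alternatives covered pseudocounts, filters, scalings, ways of making gene FPKM, limma options, a Wilcoxon test, a replicate block and leaving out each library. Zeros set to missing, and per-base values with median-of-ratios scaling, were added after seeing the data. Lane and fattening year of each animal are not given in the labels, so batch and group cannot be told apart. The p-values set the difference between the groups against the spread between these animals. No gene had the same non-zero value in any pair of libraries, and libraries correlated at 0.813 to 0.900, so all 12 were kept as separate animals.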

Additional observations from a re-analysis of the deposited data

Results flagged for a closer look

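In each group of 6, a highest or lowest value whose gap to the next exceeds Dixon's critical share of the group range was looked for in 118 sets of values. It was found in 6, where chance gives about 1 in 20 (5.9 here).

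RPL12 had 281 FPKM in its highest Tough library, against 229.7 FPKM in the next. RPS15A had 91.4 FPKM in its lowest Tough library, Tough 6, against 103 FPKM in the next, and without that library the direction of its difference from Tender was the same. RPS7 had 454 FPKM in its highest Tough library, Tough 1, against 360.4 FPKM in the next, and 500.2 FPKM in its highest Tender library, Tender 2, against 387 FPKM in the next. RPL37A had 255 FPKM in Tough 4, against 144 FPKM in the next Tough library. The ratio of RPL3L to RPL3 per exon base was 8.68 in Tough 6, against 4.35 in the next Tough library, and Tough 6 had the lowest RPL3 of the 12 (14.5 FPKM).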

How the results depend on the processing

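No gene and no member was called under any alternative run, the 12 left-out libraries included, nor was any member called at an adjusted p of at most 0.20 with no fold minimum or with the L1 paralogs counted. The number of members at an unadjusted p of at most 0.05 was 3. It was 1 with median-of-ratios, quantile or upper-quartile scaling, 1 with zeros set to missing or per-base values combined with median-of-ratios scaling, 5 per exon base, 12 with array weights, 7 with the exact Wilcoxon test, and 0 to 7 with 1 library left out. The member median (-0.15) stayed below 0 under each alternative, from -0.215 with array weights to -0.014 with quantile normalization. Beside it, the median of all genes was -0.04 in the main run, -0.004 with array weights and 0.002 with quantile normalization. Over all genes, those at that p were 65 with a higher Tough mean and 161 with a higher Tender mean. These counts became 58 and 320 without Tough 1, 78 and 305 without Tender 1, and 239 and 162 without Tender 4. They were 141 and 207 with no filter, 106 and 270 with the plain sum and 67 and 198 per exon base. With array weights they were 262 and 376, and with the exact Wilcoxon test 53 and 139. They were 143 and 140 with median-of-ratios, 144 and 147 with quantile and 149 and 134 with upper-quartile scaling.

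The animal number is only a name, since no label pairs the animals. Same-numbered deviations correlated at -0.224 to 0.024, and with the replicate block 2 members stood at p of at most 0.05 (1 in each direction) and 0 were called. The RPL3L to RPL3 log2 ratio of -2.52 kept its direction with the replicate block (exact p = 0.438) and ran from -3.21 to -1.39 with 1 library left out, but it reversed to 0.28 over libraries with both genes above 0. The other reversed values given here are of single members listed at 0 in 1 or 2 libraries. With zeros missing RPS28 was -0.009, RPL37 -0.135, RPL11 -0.159 and RPL10A -0.198. With 1 library left out RPS28 ran from -0.009 (without Tender 1) to 2.207, RPL37 from -0.135 (Tender 5) to 1.856, RPL11 from -0.159 (Tender 2) to 1.801 and RPL10A from -0.198 (Tender 4) to 1.706. With zeros missing and median-of-ratios scaling RPL37 was -0.091, RPL11 -0.10, RPL10A -0.20 and RPL3L 0.11. The cause of these moves was not tested beyond the removal of the zeros. Differences that are small beside their SE could not be detected here.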
